A study of Mus musculus with 6 samples.

Results

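The mRNAs of 10 genes that govern the entry of glucose into muscle were followed in mouse gastrocnemius, a mixed and mostly fast calf muscle. They were the RabGAPs Tbc1d1 and Tbc1d4, the transporters Slc2a4 (GLUT4) and Slc2a1 (GLUT1), the hexokinases Hk1 and Hk2, and the AMPK subunits Prkaa1, Prkaa2, Prkab2 and Prkag3. They were chosen by name, 10 of 35491 named genes, with the difference between the groups already known from earlier work on these files. For that reason their own differences between groups are given as a description. Where a p from the fit of all genes is given for Tbc1d1 or Tbc1d4, it shows only how that value depends on the processing and is no independent test. All 10 had a mean of at least 1 over the 6 libraries and so entered the fit of 23312 genes.

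Glucose enters a muscle fibre through facilitative transporters of the GLUT family. GLUT4 waits in vesicles inside the fibre until insulin or contraction brings it to the surface, where hexokinase then traps the glucose as glucose 6-phosphate. The kinases AKT (for insulin) and AMPK (for low energy charge) act on this traffic in part by phosphorylating the paired Rab GTPase-activating proteins TBC1D1 and TBC1D4, which otherwise hold GLUT4 vesicles back. AMPK is a trimer of a catalytic alpha, a scaffold beta and a nucleotide-sensing gamma subunit, and the form with gamma 3 is known from fast glycolytic muscle.

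The study set Ogg1Tg mice (n = 3) against Control mice (n = 3). All were males on a C57BL/6J background, 20 weeks old, fed chow and otherwise untreated. Ogg1Tg mice carry human OGG1-1a, a DNA glycosylase that removes oxidised guanine, joined to a mitochondrial targeting signal. It is driven by the CMV/AG promoter, which is not restricted to muscle, so other tissues of these mice can carry the protein too. Control mice are given as C57BL/6J, and the labels do not call them littermates. The labels do not give the number of founder lines either.

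RNA was sequenced from whole muscle, and values are given as scaled reads, the reads of a gene divided by 1 factor per library. Libraries held 45189860 to 56126407 reads in named genes. The skeletal muscle markers Acta1, Ckm, Mb, Des, Myl1 and Ttn were present in every library. Mb (myoglobin) measured 23409, 14899.9 and 6392 scaled reads in Ogg1Tg replicates 1, 2 and 3, against 26217, 42743 and 39151 in Control replicates 1, 2 and 3. It lay below Control in each Ogg1Tg library without passing (log2 fold change -1.43 ± 0.42, limma adjusted p = 0.25, DESeq2 adjusted p = 0.035). Mouse Ogg1 had 190 ± 13.1 scaled reads in Ogg1Tg muscle and 191 ± 35.7 in Control muscle (SD, n = 3 each). It is not the human transgene and so does not check the labels. The library Ogg1Tg replicate 3 was unlike the remaining 5. Across genes, its Spearman correlations with them were 0.946 to 0.953, whereas other pairs reached 0.983. Neutrophil and lymphocyte markers (12 of 14 tested, none called by limma, edgeR or DESeq2 and 2 at an unadjusted p under 0.05, Elane at 0 in every library) summed to 114, 108.5 and 8799 scaled reads in Ogg1Tg replicates 1, 2 and 3, against 65.7 to 74.9 in Control libraries. The 6 adipocyte markers summed to 1363, 1410.2 and 8044 in Ogg1Tg replicates 1, 2 and 3, against 1495 to 1951 in Control libraries. The 6 skeletal muscle markers, whose sum is mostly Ttn, summed to 7748812 in Ogg1Tg replicate 3, against 10732381 to 13216031 in the other 5 libraries. The 6 macrophage markers summed to 2358, 1819 and 5203 in Ogg1Tg replicates 1, 2 and 3, against 2635 to 3668 in Control libraries, also highest in that library. Erythroid markers differed between the groups instead, with sums of 618, 714 and 572 in Ogg1Tg replicates 1, 2 and 3, against 780.5 to 961 in Control libraries. All 6 tested were below 0, and none was called by limma, edgeR or DESeq2. An unadjusted p under 0.05 by limma was seen for 3 of the 6, against 2570 of all 23312 genes. The part of these markers in the results below was not tested, and results are given with and without this library.

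Among the 10 genes, the groups were fully apart in the RabGAPs alone, and in opposite directions. Tbc1d1 mRNA was 0.358 times the Control level in Ogg1Tg muscle, whereas Tbc1d4 mRNA was 1.35 times the Control level. The other 8 genes had values in the 2 groups that overlapped. Tbc1d1 alone was called by limma at an adjusted p under 0.05, which over all 23312 genes called 127, or 0.545%. This contrast was in view when the genes were chosen, so nothing is read from that count. Groups without overlap were seen in 18.3% of all genes tested, 7.03% with Ogg1Tg above Control and 11.3% with Ogg1Tg below.

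Tbc1d1 (ENSMUSG00000029174.18, chr5:64156305-64351486, plus strand, GRCm38) encodes the RabGAP that is known as the AMPK-responsive partner of the pair and is abundant in fast glycolytic muscle. It measured 2403, 2961 and 1435 scaled reads in Ogg1Tg replicates 1, 2 and 3, against 6999, 5648 and 5641 in Control replicates 1, 2 and 3. Every Ogg1Tg library lay below every Control library, with Ogg1Tg replicate 3 lowest and Control replicate 1 highest. The means were 2266 ± 772 in Ogg1Tg muscle and 6096 ± 782 in Control muscle (SD, n = 3 each), a log2 fold change of -1.48 ± 0.24 (SE) on the log2(value + 1) scale. The limma adjusted p of 0.039 is the value known when the gene was put on the list and is no separate evidence. With edgeR's quasi-likelihood test on recovered reads the adjusted p was 0.055. Without Ogg1Tg replicate 3 the log2 fold change was -1.18. In whole tissue, fewer cells or fibres of a kind and less RNA in each of them cannot be told apart.

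Tbc1d4 (AS160, ENSMUSG00000033083.16, chr14:101442360-101609191, minus strand) encodes the partner best known as a target of AKT in the insulin response. It measured 5958, 5479.5 and 5520.4 scaled reads in Ogg1Tg replicates 1, 2 and 3, against 3977, 4346 and 4191 in Control replicates 1, 2 and 3. Every Ogg1Tg library lay above every Control library. The spread within groups was the smallest of the 10 genes in Ogg1Tg muscle, with a coefficient of variation of 4.70% there and 4.44% in Control muscle, against 34.1% and 12.8% for Tbc1d1. The log2 fold change was 0.44 ± 0.11 (SE), and 0.45 without Ogg1Tg replicate 3.

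**Figure D1:**
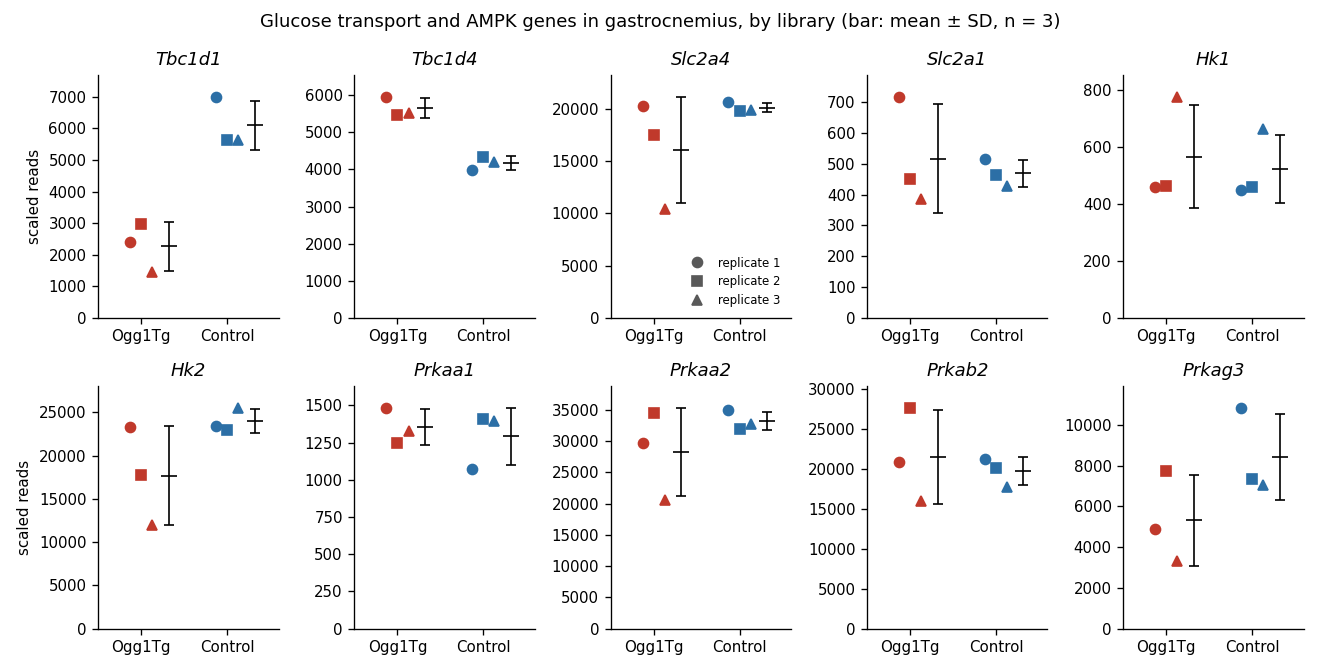
Scaled reads (linear axes that start at 0) of the 10 genes in each library, Ogg1Tg in red to the left of Control in blue, with marker shapes for replicates 1, 2 and 3 and a bar for the mean ± SD (n = 3 each). Ogg1Tg and Control points are apart for Tbc1d1 and for Tbc1d4, and overlap for the other 8 genes.

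Because these were the only members whose groups did not overlap, the bases around their annotated starts are shown. Each window runs from 250 bases before to 50 bases after a start in RefSeq (GRCm38.p6), written 5′ to 3′ on the gene's strand. Tbc1d1 has 2 windows, chr5:64160010-64160309 and chr5:64230107-64230406 (plus strand), and Tbc1d4 has 1, chr14:101609142-101609441 (minus strand). Capitals mark E-boxes (CANNTG), GC boxes (GGGCGG or its reverse CCGCCC) and the core of the cyclic AMP response element (TGACG or CGTCA).
Tbc1d1 start 1: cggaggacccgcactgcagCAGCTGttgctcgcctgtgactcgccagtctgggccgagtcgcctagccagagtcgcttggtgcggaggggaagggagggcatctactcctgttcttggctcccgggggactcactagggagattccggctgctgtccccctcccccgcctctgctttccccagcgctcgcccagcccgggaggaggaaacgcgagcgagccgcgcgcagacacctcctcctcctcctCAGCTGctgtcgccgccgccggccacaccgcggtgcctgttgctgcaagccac
Tbc1d1 start 2: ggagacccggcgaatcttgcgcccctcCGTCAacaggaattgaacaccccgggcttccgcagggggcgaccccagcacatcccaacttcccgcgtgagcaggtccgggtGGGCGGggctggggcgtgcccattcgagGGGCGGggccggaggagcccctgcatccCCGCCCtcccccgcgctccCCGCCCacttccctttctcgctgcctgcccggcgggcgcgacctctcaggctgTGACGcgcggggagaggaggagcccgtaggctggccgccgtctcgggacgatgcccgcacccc
Tbc1d4 start: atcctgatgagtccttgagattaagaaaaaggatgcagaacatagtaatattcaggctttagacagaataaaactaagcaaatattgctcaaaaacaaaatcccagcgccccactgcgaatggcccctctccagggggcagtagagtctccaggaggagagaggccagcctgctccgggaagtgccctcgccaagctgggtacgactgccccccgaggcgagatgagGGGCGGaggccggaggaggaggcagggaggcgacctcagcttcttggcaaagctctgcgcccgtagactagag
The RabGAP starts differed in base composition and in these motifs. The Tbc1d1 windows held 69.3% and 74.0% G and C and the Tbc1d4 window 55.7%, against a median of 52.7% over all 32851 windows. Windows of the other members ran from 51.3% (Hk1, first window) to 82.0% (Prkaa1), so these contents are not particular to the RabGAPs. The first Tbc1d1 window had the E-box CAGCTG beginning 231 and 3 bases before the start and none of the other motifs. The second had 4 GC boxes, beginning 141, 113, 85 and 66 bases before the start, and the cyclic AMP core 223 and 13 bases before it. Its first transcribed bases were not found in a GENCODE M21 transcript, whereas those of the first window were. The Tbc1d4 window had 1 GC box, 23 bases before the start. Such letters are common, with an E-box in 72.3%, a GC box in 35.7% and the cyclic AMP core in 20.8% of all windows.

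Of the 10 genes, 9 had a window, 11 windows in all. They were also searched on both strands for CCAAT (in 37.4% of all windows), TATAAA (13.6%), the C/EBP-ATF element TGATGNAA (3.97%) and the MEF2 site (3.69%). The last 2 had no match in any of the 11 windows. Hk2 had CCAAT boxes 122 and 66 bases before its start, and Slc2a1 had CCAAT 12 and TATAAA 28 bases after its start. Prkag3 had the E-box CAGCTG 40 bases before its start, the same 6 letters as in the first Tbc1d1 window. GC boxes numbered 5 each in the Prkaa1 and Prkab2 windows. These are letter matches in short windows and show no binding.

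Set side by side within each library, the RabGAPs stood in opposite order in the groups. Levels per kilobase of exon allow 2 genes to be compared, and the ratio of Tbc1d1 to Tbc1d4 was 0.418, 0.560 and 0.270 in Ogg1Tg replicates 1, 2 and 3, against 1.82, 1.35 and 1.40 in Control replicates 1, 2 and 3. Tbc1d1 was thus the higher of the pair in each Control library and the lower in each Ogg1Tg library. The mean level was 306 ± 104 scaled reads per kb for Tbc1d1 and 736 ± 34.6 for Tbc1d4 in Ogg1Tg muscle. In Control muscle it was 823 ± 106 for Tbc1d1 and 543 ± 24.1 for Tbc1d4 (SD, n = 3 each). A ratio within a library needs no scaling between libraries, and it shows unequal change of the pair without saying how much of it came from either gene.

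GLUT4 is the transporter that insulin and contraction bring to the fibre surface, and its mRNA had the highest mean per kilobase of the 10 in both groups. Prkab2 exceeded it in Ogg1Tg replicates 2 and 3 (5423 and 3140 scaled reads per kb, against 5027 and 2988 for Slc2a4). Slc2a4 (chr11:69942539-69948188, minus strand) measured 20299, 17484 and 10393 scaled reads in Ogg1Tg replicates 1, 2 and 3, against 20656, 19803 and 19937 in Control replicates 1, 2 and 3. Ogg1Tg replicate 1 lay among the Control libraries, replicate 2 a little below them and replicate 3 far below. The log2 fold change was -0.38 ± 0.24 (SE), and -0.10 without Ogg1Tg replicate 3.

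Slc2a1 (chr4:119108711-119137983, plus strand) encodes GLUT1, the basal transporter that blood and vessel cells also use. It measured 718, 449.8 and 384 scaled reads in Ogg1Tg replicates 1, 2 and 3, against 515, 464 and 428 in Control replicates 1, 2 and 3. Ogg1Tg replicate 1 was the highest of all 6 libraries and Ogg1Tg replicate 3 the lowest. The log2 fold change was 0.09 ± 0.23 (SE), and 0.28 without Ogg1Tg replicate 3.

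Measured against GLUT4 in the same library, the RabGAPs differed in the same directions as by themselves. The ratio of Tbc1d1 to Slc2a4 scaled reads was 0.118, 0.169 and 0.138 in Ogg1Tg replicates 1, 2 and 3, against 0.339, 0.285 and 0.283 in Control replicates 1, 2 and 3. That of Tbc1d4 to Slc2a4 was 0.294, 0.313 and 0.531 in Ogg1Tg replicates 1, 2 and 3, against 0.193, 0.219 and 0.210 in Control replicates 1, 2 and 3. Neither ratio overlapped between the groups, the first lower and the second higher in each Ogg1Tg library. Both reuse the RabGAP values above and are no further evidence. The design did not list these pairs, and the share of other gene pairs without overlap was not taken.

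Hexokinase 2, the main hexokinase of insulin-sensitive muscle, followed the same library order as GLUT4 within Ogg1Tg muscle. Hk2 (chr6:82725025-82774454, minus strand) measured 23343, 17752 and 11995 scaled reads in Ogg1Tg replicates 1, 2 and 3, against 23428, 22964 and 25540.5 in Control replicates 1, 2 and 3. Ogg1Tg replicate 1 lay within the Control range and the other Ogg1Tg libraries below it. Hk2 had a log2 fold change of -0.49 ± 0.23 (SE), and -0.23 without Ogg1Tg replicate 3. The ratio of Hk2 to Slc2a4 scaled reads was 1.15, 1.02 and 1.15 in Ogg1Tg replicates 1, 2 and 3, against 1.13, 1.16 and 1.28 in Control replicates 1, 2 and 3, so these groups overlapped.

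Hk1 (chr10:62268855-62379908, minus strand), the hexokinase of most other tissues, measured 459, 464 and 776 scaled reads in Ogg1Tg replicates 1, 2 and 3, against 449, 459 and 662 in Control replicates 1, 2 and 3. Replicate 3 was the highest in both groups. On the log2 scale Hk1 differed by 0.09 ± 0.24 (SE), and -0.16 without Ogg1Tg replicate 3.

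Among the AMPK subunits, the gamma 3 subunit differed most between the groups, though they overlapped. Prkag3 (chr1:74738922-74749221, minus strand) measured 4862, 7747 and 3313 scaled reads in Ogg1Tg replicates 1, 2 and 3, against 10842, 7353 and 7056 in Control replicates 1, 2 and 3. Ogg1Tg replicate 2 lay above Control replicates 2 and 3, and the other Ogg1Tg libraries lay below every Control library. The log2 fold change was -0.72 ± 0.29 (SE), and -0.43 without Ogg1Tg replicate 3.

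The catalytic and scaffold subunits differed less. Prkaa2 (alpha 2, the main catalytic subunit of muscle, chr4:105029874-105109890, minus strand) measured 29686, 34550.3 and 20611 scaled reads in Ogg1Tg replicates 1, 2 and 3, against 34916, 31987 and 32799 in Control replicates 1, 2 and 3. Prkab2 (beta 2, the scaffold that carries glycogen binding in muscle, chr3:97658193-97673812, plus strand) measured 20808, 27637 and 15999.9 in Ogg1Tg replicates 1, 2 and 3, against 21267, 20088 and 17761 in Control replicates 1, 2 and 3. In both genes Ogg1Tg replicate 3 was the lowest library. On the log2 scale the fold change was -0.26 ± 0.21 (SE) for Prkaa2 and 0.09 ± 0.21 for Prkab2. Without Ogg1Tg replicate 3 these were -0.05 and 0.29.

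Prkaa1 (alpha 1, the catalytic subunit of most other cells, chr15:5143861-5181899, plus strand) measured 1485, 1250.1 and 1329.8 scaled reads in Ogg1Tg replicates 1, 2 and 3, against 1073, 1410.0 and 1393 in Control replicates 1, 2 and 3. The groups overlapped, and the log2 fold change was 0.08 ± 0.15 (SE), and 0.09 without Ogg1Tg replicate 3.

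Within a library, gamma 3 was low relative to the scaffold it binds. The ratio of Prkag3 to Prkab2 scaled reads was 0.234, 0.280 and 0.207 in Ogg1Tg replicates 1, 2 and 3, against 0.510, 0.366 and 0.397 in Control replicates 1, 2 and 3. The ratio of Prkaa2 to Prkab2 was 1.43, 1.25 and 1.29 in Ogg1Tg replicates 1, 2 and 3, against 1.64, 1.59 and 1.85 in Control replicates 1, 2 and 3. Both ratios were lower in each Ogg1Tg library than in each Control library, although none of the 3 genes had separate groups by itself. The ratios share Prkab2 and so are not independent. The design did not list these pairs either, and the share of other gene pairs without overlap was not taken.

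**Figure D2:**
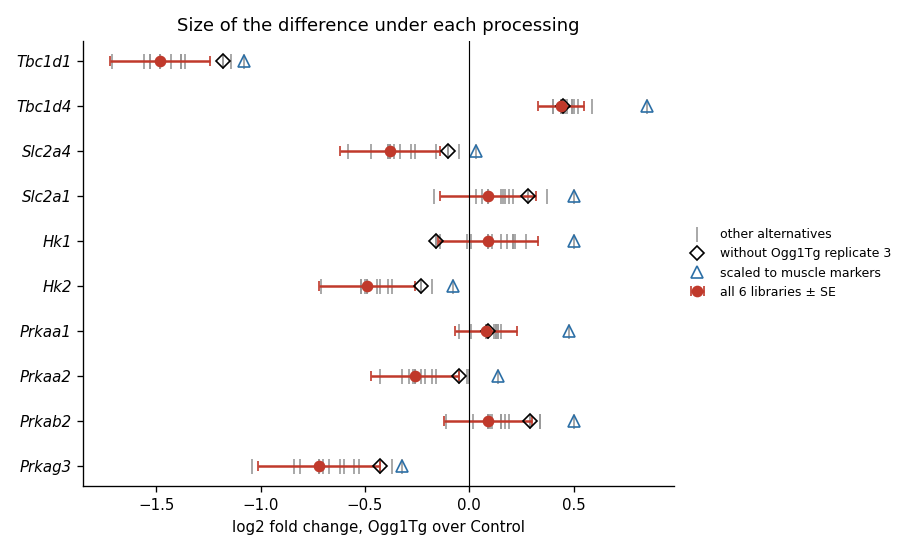
Log2 fold change of Ogg1Tg over Control for each of the 10 genes with all 6 libraries (red, ± SE), without Ogg1Tg replicate 3 (diamonds), after scaling to skeletal muscle markers (triangles) and under the other alternatives (ticks). Tbc1d1 runs from -1.71 to -1.08 and Tbc1d4 from 0.40 to 0.85, and the scaling to muscle markers moves all genes up alike, their median to 0.37. Mb, one of those markers, itself has a log2 fold change of -1.43.

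The order of levels per kilobase put the muscle isoforms far above their relatives. In Ogg1Tg muscle Slc2a4 led with 4617 ± 1468 scaled reads per kb, followed by Prkab2 with 4215 ± 1148, Prkaa2 with 3549 ± 888 and Hk2 with 2965 ± 951, whose spreads overlap. Within each Ogg1Tg library, however, Slc2a4 and Prkab2 both stood above Prkaa2 and Hk2. The order of Slc2a4 and Prkab2, and that of Prkaa2 and Hk2, varied between libraries. Prkag3 had 1442 ± 611 and Tbc1d4 736 ± 34.6. Tbc1d1, with 306 ± 104, stood beside Prkaa1, with 291 ± 25.7, and did not differ from it beyond the spread. Slc2a1 had 148 ± 50.4 and Hk1 66.4 ± 21.3 (SD, n = 3).

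In Control muscle Slc2a4 had 5788 ± 132 scaled reads per kb, Prkaa2 4170.4 ± 190, Hk2 4017 ± 230 and Prkab2 3867 ± 350, the last 3 with overlapping spreads. Within each Control library Prkaa2 stood above Prkab2, while the place of Hk2 relative to both varied. Prkag3 had 2286 ± 572 and Tbc1d1 823 ± 106. Here Tbc1d1 stood above Tbc1d4, with 543 ± 24.1, and well above Prkaa1, with 278 ± 40.7. Slc2a1 had 134 ± 12.4 and Hk1 61.3 ± 14.1 (SD, n = 3).

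Each member was also set against a close relative in the same library, 6 pairs in all, with a two-sided exact sign-flip permutation test over the 6 libraries. This test asks only which gene was higher and does not use the groups. The muscle isoform was the higher in 6 of 6 libraries in 5 pairs (exact p = 0.03125, the smallest that 6 libraries allow, adjusted p = 0.0375). Slc2a4 exceeded Slc2a1 by 28.5, 39.2 and 27.3 times in Ogg1Tg replicates 1, 2 and 3, against 40.5, 43.0 and 46.9 times in Control replicates 1, 2 and 3. Hk2 exceeded Hk1 by 72.7, 54.6 and 22.1 times in Ogg1Tg replicates 1, 2 and 3, against 74.5, 71.5 and 55.2 times in Control replicates 1, 2 and 3. The transporter ratio was lower in each Ogg1Tg library than in each Control library, and the hexokinase ratios overlapped. No share over other gene pairs was taken for such gaps. The size of a ratio depends on the gene length used. By longest annotated transcript Hk2 exceeded Hk1 by 39.5, 29.7 and 12.0 times in Ogg1Tg replicates 1, 2 and 3. In Control replicates 1, 2 and 3 it did so by 40.5, 38.8 and 29.9 times.

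The AMPK pairs showed the same order in every library. Prkaa2 exceeded Prkaa1 by 11.7, 16.1 and 9.05 times in Ogg1Tg replicates 1, 2 and 3, against 19.0, 13.3 and 13.8 times in Control replicates 1, 2 and 3. Prkab2 exceeded Prkab1 by 29.2, 38.2 and 18.4 times in Ogg1Tg replicates 1, 2 and 3, against 37.2, 26.0 and 27.6 times in Control replicates 1, 2 and 3. Prkag3 exceeded Prkag1 by 2.65, 4.10 and 2.21 times in Ogg1Tg replicates 1, 2 and 3, against 6.33, 4.24 and 3.92 times in Control replicates 1, 2 and 3. Alpha 2, beta 2 and gamma 3, the subunits of the trimer known from fast muscle, were thus each the higher of their pair in both groups. By longest annotated transcript Prkab2 exceeded Prkab1 by 20.3, 26.5 and 12.7 times in Ogg1Tg replicates 1, 2 and 3. In Control replicates 1, 2 and 3 it did so by 25.8, 18.1 and 19.1 times. Tbc1d1 over Tbc1d4 was the exception among the 6 pairs, higher in 3 of 6 libraries (exact p = 0.5, adjusted p = 0.5).

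**Figure D3:**
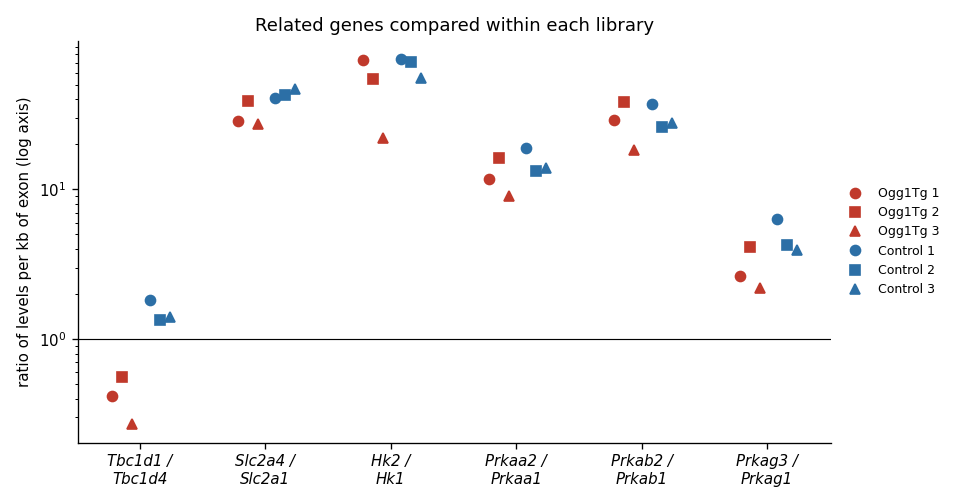
Ratio of the levels per kilobase of exon of 2 related genes within each library, on a log axis, Ogg1Tg in red to the left of Control in blue for each pair. The line marks a ratio of 1, which Tbc1d1 over Tbc1d4 crosses between the groups, from 0.270 to 0.560 in Ogg1Tg libraries against 1.35 to 1.82 in Control libraries.

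Fibre type markers also differed between the libraries. The 9 slow fibre markers, with Myh7 (slow myosin heavy chain) the highest, summed to 117662, 152963 and 97329 scaled reads in Ogg1Tg replicates 1, 2 and 3, against 34877, 78129 and 89980 in Control replicates 1, 2 and 3. All 9 had a log2 fold change above 0, with a median of 0.93. None was called by limma or edgeR. DESeq2 called 3, against 619 of all 23312 genes. An unadjusted p under 0.05 by limma was seen for 6 of the 9, against 2570 of all 23312 genes. The 10 fast fibre markers summed to 5819999, 7851748 and 4016115 in Ogg1Tg replicates 1, 2 and 3, against 8525824, 6914882 and 6197086 in Control replicates 1, 2 and 3. None of these 10 was above 0, with a median log2 fold change of -0.39, and none was called by limma, edgeR or DESeq2 or had an unadjusted p under 0.05.

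Within each group, Tbc1d1 and Prkag3 had the same library order as the fast fibre sum, which is no more than an order of 3 libraries. That sum is mostly Myh4, and Myh1 alone of the fast fibre markers had another order. Control replicate 1 had the highest Tbc1d1 and Prkag3, the lowest Tbc1d4 and the lowest slow fibre sum of the Control libraries. Ogg1Tg replicate 2 had a fast fibre sum above those of Control replicates 2 and 3, while its Tbc1d1 value of 2961 scaled reads was below those libraries' 5648 and 5641. The part of fibre type in the Tbc1d1, Tbc1d4 and Prkag3 values was not tested.

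**Figure D4:**
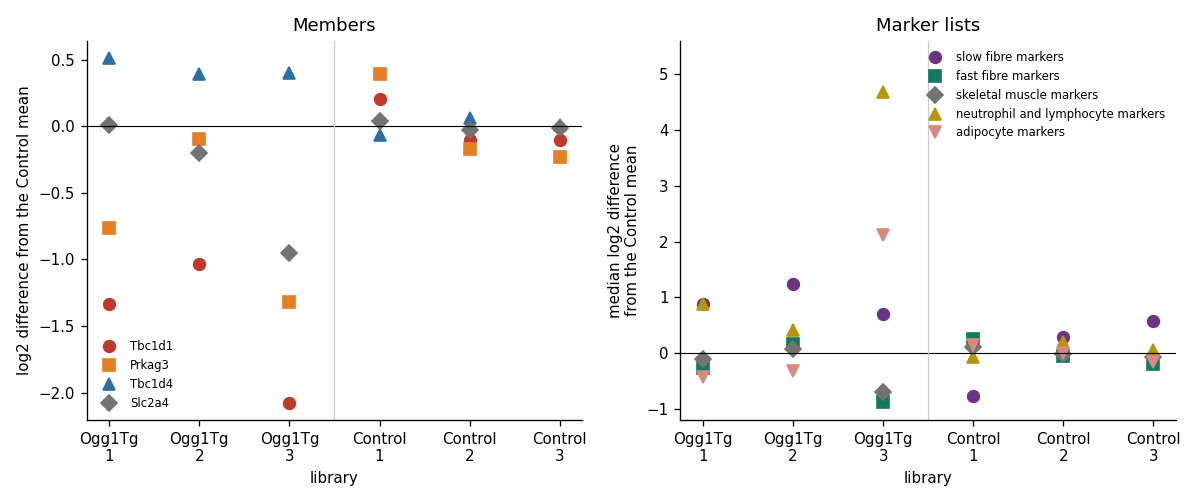
Log2 difference of each library from the Control mean for Tbc1d1, Prkag3, Tbc1d4 and Slc2a4 (left) and the median of the same difference over 5 marker lists (right), Ogg1Tg libraries left of Control libraries. Tbc1d1 lies below and Tbc1d4 above 0 in each Ogg1Tg library, and Ogg1Tg replicate 3 has the highest neutrophil and lymphocyte, and adipocyte, medians and the lowest skeletal muscle median.

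Around these 10 genes, 92 further genes of the route were tested, from 95 listed in 10 groups by role. The lists, Trib3 included, were drawn up with earlier results of these data known. A call among their genes is therefore no independent test. Of the 92, 1 was called higher in Ogg1Tg muscle, against 0.395% of all genes, and 0 lower, against 0.150%. The other 91 did not pass, and 13 of the 92 had an unadjusted p under 0.05, against 2570 of all 23312 genes. On recovered reads edgeR called 1 of them, Trib3, and DESeq2 called 4, among them Trib3, Cab39 and Nuak1. Their log2 fold changes were above 0 for 27 and below 0 for 65, with a median of -0.16, against -0.02 over all genes tested. The groups did not overlap for 30 of them, or 32.6%, against 18.3% of all genes tested. Ogg1Tg lay below Control in 23, or 25.0% (11.3% of all genes), and above in 7, or 7.61% (7.03% of all genes). The values over all genes include genes with a mean as low as 1, and shares at like levels were not taken. Ogg1Tg replicate 3 was the lowest library for 45.7% of genes with a mean of at least 100, against 30.8% of all genes tested. Nothing particular to the route is read from these shares.

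The gene that rose was Trib3, a stress-induced pseudokinase known to bind AKT and dampen insulin signalling. It measured 1574, 771 and 998 scaled reads in Ogg1Tg replicates 1, 2 and 3, against 56.9, 46.2 and 54.8 in Control replicates 1, 2 and 3. The groups were far apart, with a log2 fold change of 4.32 ± 0.26 (SE), a fold of 20.0 (limma adjusted p = 0.00011, higher in 3 of 3 Ogg1Tg libraries). The other 6 brakes on glucose uptake did not pass. Txnip, an arrestin that takes GLUT proteins off the surface, had a log2 fold change of 0.08 (adjusted p = 0.89), and Pdk4, which closes the entry of pyruvate to the mitochondrion, 0.27 (adjusted p = 0.82).

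Among the other GLUT genes, 4 of 9 were above 0 and 5 below, and none passed by any of the 3 tools, with 1 at an unadjusted p under 0.05. Slc2a12 (GLUT12) measured 608, 639 and 405 scaled reads in Ogg1Tg replicates 1, 2 and 3, against 954, 831 and 875 in Control replicates 1, 2 and 3 (log2 fold change -0.71 ± 0.19, limma adjusted p = 0.20). Slc2a3 (GLUT3) had a log2 fold change of -0.33 (adjusted p = 0.52). Per kilobase, Slc2a4 exceeded both by far, at 4617 scaled reads in Ogg1Tg muscle and 5788 in Control muscle, while Slc2a12 had 130 in Ogg1Tg and 209 in Control muscle, and Slc2a3 147 in Ogg1Tg and 183 in Control muscle.

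Of the other hexokinases, Hk3 had a log2 fold change of 0.20 (limma adjusted p = 0.91).

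The rest of the AMPK system gave no calls by limma. The unadjusted p was under 0.05 for 0 of 3 subunits, 4 of 13 kinases and partners and 1 of 11 substrates. Among all 23312 genes it was for 2570. The 3 further subunits had a median of -0.01, and Prkag1, the ubiquitous gamma 1 subunit, had 1029 ± 124 scaled reads in Ogg1Tg muscle and 1033 ± 26.2 in Control muscle (SD, n = 3 each). Of 13 upstream and related kinases and partners, 5 were above 0 and 8 below. Cab39 (MO25), which binds the AMPK kinase LKB1, measured 9443, 9613.5 and 6075 scaled reads in Ogg1Tg replicates 1, 2 and 3, against 13895, 12624 and 13846 in Control replicates 1, 2 and 3. It lay below Control in each Ogg1Tg library without passing (log2 fold change -0.71 ± 0.19, limma adjusted p = 0.21). Map3k7 (TAK1) had a log2 fold change of -0.19 (adjusted p = 0.69). Of 11 AMPK substrates, 10 were below 0, among them Acacb, the acetyl-CoA carboxylase of muscle, at -0.45 (adjusted p = 0.54) and Pfkfb3, which makes an activator of glycolysis, at -0.45 (adjusted p = 0.70).

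The insulin arm, the Rab proteins, the vesicle machinery and the transcriptional regulators gave no calls by limma, edgeR or DESeq2, with unadjusted p under 0.05 for 1, 1, 0 and 2 of their genes. Of 10 genes from the insulin receptor to AKT, 8 were below 0, with Akt2, the AKT form of glucose uptake, at -0.40 (adjusted p = 0.47) and Insr at -0.04 (adjusted p = 0.95). Of 12 Rab GTPases and partners of the RabGAPs, 8 were below 0, with Rab10, a substrate of TBC1D4, at -0.39 (adjusted p = 0.48) and Rac1, which acts on actin, at -0.25 (adjusted p = 0.61). Of 13 genes of the GLUT4 vesicle and its fusion, 11 were below 0, with Lrp1 at -0.23 (adjusted p = 0.62) and clathrin heavy chain Cltc at -0.03 (adjusted p = 0.94). Of 12 transcriptional regulators of Slc2a4 and Hk2, 9 were below 0, with Mef2c at -0.44 (adjusted p = 0.49) and Mef2d at 0.03 (adjusted p = 0.97).

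The call for Trib3 held without Ogg1Tg replicate 3 when genes were filtered on the remaining 5 libraries (limma adjusted p = 3.8e-05). With edgeR without that library it was 2.7e-05. With the filter taken on all 6 libraries it was not called (limma adjusted p = 0.064, log2 fold change 4.37). Without that library, and filtered on the remaining 5, Cab39 passed and was lower (limma adjusted p = 0.025). Nuak1, an AMPK-related kinase, also passed and was lower, and Akt1 passed and was higher (limma adjusted p = 0.028 and 0.037). That fit called 425 genes over all. With the filter on all 6 libraries, Cab39, Nuak1 and Akt1 were not called (limma adjusted p = 0.11, 0.14 and 0.14). Nuak1 and Akt1 were named after their values were seen.

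**Figure D5:**
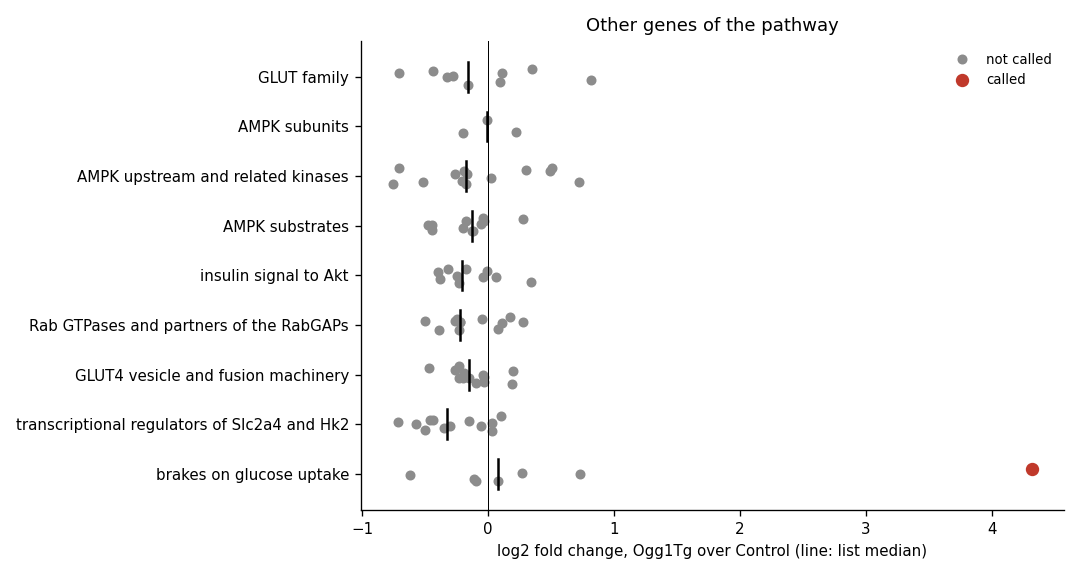
Log2 fold change of Ogg1Tg over Control for 90 further genes of glucose uptake in 9 groups by role (hexokinases not plotted), with a line at each group's median and in red the gene called by limma. Trib3, at 4.32, is that gene, and the other points lie between -1 and 1.

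The RabGAP family as a whole was centred close to no difference. Of 39 genes of the family in the files, all tested, Tbc1d4 and Tbc1d1 had the highest mean scaled reads over the 6 libraries (not corrected for length). Over the other 37 the median log2 fold change was -0.01, and values ran from -0.73 for Grtp1 to 2.45 for Tbc1d31. An unadjusted p under 0.05 by limma was seen for 5 of the 37, against 2570 of all 23312 genes. Tbc1d31, which is known as a protein of centriolar satellites, was the 1 of the 37 called by limma, where 0.545% of all genes were called, and by edgeR. DESeq2 called Tbc1d8b, which is named after its values were seen, and Tbc1d31, against 619 of all 23312 genes. It measured 2025, 1212 and 1476 scaled reads in Ogg1Tg replicates 1, 2 and 3, against 320.3, 278 and 247 in Control replicates 1, 2 and 3, and it rose by a log2 fold change of 2.45 ± 0.20 (limma adjusted p = 0.00096, higher in 3 of 3 Ogg1Tg libraries). Without Ogg1Tg replicate 3 the adjusted p was 0.00025 with genes filtered on the remaining 5 libraries and 0.083, not a call, with the filter on all 6.

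No tested gene near Tbc1d1 on chromosome 5 was called, though 3 had values below Control in each Ogg1Tg library. Within 500 kb of Tbc1d1, 33 genes are annotated, 15 are in the files and 11 were tested, with 8 below 0 and none called by limma (3 at an unadjusted p under 0.05, against 2570 of all 23312 genes, and none by edgeR or DESeq2). Those 3, named after their values were seen, were 0610040J01Rik, Rell1 and Gm15824, with log2 fold changes of -1.04, -0.43 and -0.98 (limma adjusted p = 0.26, 0.39 and 0.37). The groups did not overlap for these 3 of 11, Ogg1Tg below, against 11.3% of all genes. The nearest tested gene before it is Pgm2, a phosphoglucomutase, 27954 bases away. It measured 23972, 36066 and 16550.1 scaled reads in Ogg1Tg replicates 1, 2 and 3, against 41753, 35170 and 32014 in Control replicates 1, 2 and 3. The groups overlapped, with a log2 fold change of -0.57 ± 0.28 (limma adjusted p = 0.49). The nearest after it, Klf3, a transcription factor 451902 bases away, had a log2 fold change of 0.05 ± 0.21 (limma adjusted p = 0.95). The pseudogenes Gm15824, Gm15823 and Gm6044 lie inside Tbc1d1, and their highest values in any library were 176, 181 and 44.4 scaled reads. The strand setting of the counting is not given, so reads of overlapping genes may not be separated.

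Tbc1d1 had close company in its pattern over the libraries. Among 11464 genes with a mean of at least 100 scaled reads, without predicted (Gm), Rik and pseudogene entries, the Pearson r of log2 values with Tbc1d1 over the 6 libraries was highest for Tfeb (0.998), Otub2 (0.998), Ide (0.998), Upf2 (0.997) and Zfp260 (0.997). Tfeb encodes a regulator of lysosome genes, Otub2 a deubiquitinase and Upf2 a factor of nonsense-mediated mRNA decay. Ide, which encodes insulin-degrading enzyme, measured 9802, 10451 and 6926 scaled reads in Ogg1Tg replicates 1, 2 and 3, against 19617, 17304 and 17020.0 in Control replicates 1, 2 and 3. Both the gap between the groups and the order within them resemble those of Tbc1d1. Among the 10 genes, r with Tbc1d1 was 0.89 for Prkag3, 0.81 for Hk2 and Prkaa2, 0.79 for Slc2a4, 0.20 for Prkab2, 0.05 for Slc2a1, -0.36 for Prkaa1, -0.47 for Hk1 and -0.90 for Tbc1d4. These r values describe 6 libraries, include the difference between the groups, share each library's scaling factor and carry no test.

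Several members shared 1 low library. Ogg1Tg replicate 3 was the lowest of the 6 libraries for 7 of the 10 genes, namely Tbc1d1, Slc2a4, Slc2a1, Hk2, Prkaa2, Prkab2 and Prkag3. The same was true of 45.7% of 12873 tested genes with a mean of at least 100 scaled reads. Scaling all libraries to the skeletal muscle markers, which moved the median of all genes to 0.37 on the log2 scale, gave -1.08 for Tbc1d1 and 0.85 for Tbc1d4. The scaling weighs its markers equally on the log2 scale. Mb, one of them, itself had a log2 fold change of -1.43, against -0.29 (Myl1) to -0.09 (Ckm) for the others. Relative to the median of all genes, the log2 fold changes on this scaling were -1.45 for Tbc1d1, 0.48 for Tbc1d4, -0.34 for Slc2a4, -0.45 for Hk2, -0.23 for Prkaa2 and -0.69 for Prkag3. Without the scaling the same measure gave -1.46 for Tbc1d1, 0.46 for Tbc1d4 and -0.36 for Slc2a4. It gave -0.46 for Hk2, -0.24 for Prkaa2 and -0.70 for Prkag3. The scaling divides all genes of a library by 1 factor, so it shifts their log2 fold changes nearly alike. Taking off the median of all genes removes that shift. The near match with and without the scaling thus follows from the arithmetic and is no test of the members.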

How the data were processed

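Libraries of total gastrocnemius RNA (RNeasy extraction) followed the NuGen Ovation Universal protocol, per the labels' protocols. Trimmomatic, SAMtools, HTSeq and the mm10 build (GRCm38) are named, without versions, per the submitters' processing notes. Not given in the sources used here are the aligner, the annotation and strandedness. The file names call the values FPKM. The deposited values are instead a signal made by dividing gene counts by 1 factor per library, since every value is a whole multiple of 1 step per library within 0.01 of a read, whatever the gene's length. For Ogg1Tg replicate 3 the step of 1.006 is near 1, so recovery is less distinctive there. The design had allowed for FPKM, and its test was kept.

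Each file held 37315 entries, of which 1824 without a gene name (2.38% to 3.53% of reads) were left out. Reads in named genes numbered 45189860 to 56126407 a library, and the members rested on at least 324 reads each.

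Values were tested with limma 3.58.1 (R 4.3.3) on log2(value + 1), for genes whose mean over the 6 libraries reached 1, with a variance trend and Benjamini-Hochberg adjustment over 23312 genes, called at an adjusted p under 0.05. A fold change on this scale understates that of low genes. edgeR 4.0.16 and DESeq2 1.42.0 on recovered reads were alternatives, and the fits were checked on simulated data. Levels per kilobase used the exon union of GENCODE M21. For Hk1 this union is 8532 bases, against 4278 in its longest transcript, so its level per kilobase depends on that choice. The 2 counts closest to each other, Control replicates 2 and 3, still differed by more than sampling noise. Nothing in the labels says that animals shared a litter or day, and p-values measure the spread between these 6 libraries.

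The members and the gene lists were chosen with earlier results of these data known. Of the other genes of the pathway, those called and the 2 with the highest mean in each list were named, except 1 gene that is not reported here. Of the RabGAPs (Tbc1d symbols, without an opposite-strand RNA, and 9 relatives) the called ones were named. For Tbc1d1 the nearest tested neighbours and the 5 genes with the highest r were named. Alternatives were the pseudocount, the filter, the scaling, the variance model, the replicate block and each library left out. Added after seeing the data were 2 fits without Ogg1Tg replicate 3 and a scaling to skeletal muscle markers.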

Additional observations from a re-analysis of the deposited data

How the results depend on the processing

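Of the 10 genes 1, Tbc1d1, was called. None was called with a pseudocount of 0.1 or with edgeR (Tbc1d1 adjusted p = 0.051 and 0.055) or with no variance trend (0.28), and 2, Tbc1d1 and Tbc1d4, were called with DESeq2. Leaving out 1 library gave 0 to 2 calls, with Tbc1d1 lost without Ogg1Tg replicate 1 (adjusted p = 0.12) or Control replicate 1, 2 or 3 (0.24, 0.24 and 0.20). Without Ogg1Tg replicate 3 there were 2 (adjusted p = 0.0012 for Tbc1d1 and 0.036 for Tbc1d4), 2 with edgeR (0.0014 and 0.030), and 0 with the filter taken on all 6 libraries (0.11 and 0.13). The cause was not tested. Tbc1d1 stayed below 0 and Tbc1d4 above 0 in all 19 alternatives. Tbc1d4 measured 0.59 with quantile normalization.

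Over all genes 127 were called. This became 46 with no variance trend, 619 with DESeq2, 35 to 425 with 1 library left out, and, without Ogg1Tg replicate 3, 28 with the filter on all 6 libraries and 424 with edgeR. Of the 92 further genes of the route 1 was called. This became 4 with DESeq2, 1 to 5 with 1 library left out, and, without Ogg1Tg replicate 3, 0 with the filter on all 6 and 5 with edgeR.

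Replicate numbers showed no sign of pairing the samples, since same-numbered libraries had deviations correlated at -0.05, -0.01 and 0.09. With 3 libraries a group, such values cannot exclude that animals shared a litter or day. With the replicate block 102 genes were called over all, 1 of the 10 (Tbc1d1, adjusted p = 0.034) and 1 of the 92, so it changed no call among the members.

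With 3 libraries a group, 1 of which stood apart, differences of the size seen in Slc2a4 and Hk2 could not be set apart from the spread within Ogg1Tg muscle. Prkag3 spread widely in both groups, with an SD of 2250 scaled reads in Ogg1Tg and 2105 in Control muscle. Its difference could not be set apart from that spread.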
